A study of Mus musculus with 8 samples.

Results

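The genes described here are 9 negative-feedback and output genes of the RAS-ERK mitogen-activated protein kinase (MAPK) pathway, chosen by symbol: the dual-specificity phosphatase genes Dusp4, Dusp5 and Dusp6, the Sprouty genes Spry1, Spry2 and Spry4, the Sprouty-related genes Spred1 and Spred2, and the ETS transcription factor gene Etv5. All 9 were found among the 23293 mouse genes of the expression table, and 6 of them (Dusp5, Dusp6, Spry2, Spred1, Spred2 and Etv5) had a mean of at least 1 FPKM and were tested together with the 10848 other genes that did. RNA sequencing was done on bone marrow cells selected for c-Kit (Cd117) with magnetic beads, a fraction that holds stem and progenitor cells, 4 weeks after PIpC, which induces the Mx1-cre recombinase in blood-forming and other interferon-responsive cells. There were 8 libraries from individual mice, 2 in each of 4 groups. Controls had the genotype Smc3 fl/+ and no Mx1-cre. The second group was Smc3 del/+ with Mx1-cre. The third group carried Flt3-ITD and Mx1-cre. The fourth, called the combined group here, is labelled Smc3 fl/del Flt3-ITD by genotype and Smc3het Flt3ITD by title, and also carried Mx1-cre. PIpC was given in every group, so it does not separate them, whereas the recombinase is absent from controls only. The labels give no age or sex and do not say whether Flt3-ITD was on 1 or both alleles.

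In the RAS-ERK pathway an activated receptor kinase such as Flt3 or Kit recruits adaptors that load RAS with GTP, and RAS then starts the RAF, MEK and ERK kinase relay. ERK activity switches on genes whose products dampen the same relay, and the level of these transcripts is widely used as a readout of pathway output. Dusp4, Dusp5 and Dusp6 encode phosphatases that remove the activating phosphates from MAP kinases. Sprouty proteins act between the receptor and RAF, and Spred proteins bring neurofibromin, which inactivates RAS, to the membrane. Etv5 is an ETS-family transcription factor that is itself an ERK-dependent transcript in many tissues. Flt3-ITD is a constitutively active receptor found in acute myeloid leukaemia, and Smc3 is a core subunit of cohesin.

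Several features of the libraries bear on all comparisons. Mouse genes at 1 FPKM or more numbered 10490 to 10843 per library, and the depth in reads is unknown. Replicates of the combined group differed most (SD of their log2 difference 0.701 across the tested genes, against 0.350 to 0.409 in the other groups), and combined replicate 2 had 11076 genes listed at 0 against 8878 to 9907 in the other libraries. Smc3 was at 133 and 135 FPKM in libraries labelled Smc3 del/+ and at 112 and 119 in controls, so whole-gene FPKM did not show the deletion, and "with the deletion" below refers to the label. Kit, the selection marker, was at 37.4 to 60.1 FPKM in all 8 libraries. Xist, which silences 1 X chromosome in females, read 500 to 657 FPKM in the control and combined pairs and at most 0.936 FPKM in the others, so that sex cannot be told apart from genotype in comparisons of single groups, except for the combined group against control. The interaction sets these 2 Xist patterns against each other exactly, so sex and the interaction cannot be told apart. Averages over both Smc3 states, or over both Flt3 states, set 1 group of each Xist pattern on either side.

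Cell type markers also moved with Flt3-ITD. The 10 erythroid markers summed to 312 to 326 FPKM in controls, 275 to 304 in Smc3 del/+, 7.02 to 20.4 in Flt3-ITD and 38.3 to 83.7 in the combined group, and 8 of the 9 tested were lower on average with Flt3-ITD. The 7 megakaryocyte markers summed to 189 to 195, 65.4 to 73.4, 16.2 to 21.7 and 15.3 to 57.8 FPKM in the same order, with all 6 tested lower and Gp6 listed at 0 in both combined libraries. The 8 B cell markers summed to 77.3 to 203, 32.9 to 46.8, 5.06 to 9.67 and 7.59 to 10.3 FPKM, with 7 lower. Pax5 was listed at 0 in all libraries with Flt3-ITD, and Vpreb1 in the combined pair. The 8 neutrophil markers summed to 76025 to 83212 FPKM in controls, 100017 to 103985 in Smc3 del/+, 153346 to 219310 in Flt3-ITD and 134286 to 164713 in the combined group, with 3 of 8 higher. The selected fraction thus held transcripts of maturing myeloid cells as well as of progenitors. In the same order, the 8 monocyte and macrophage markers summed to 508 to 542, 632 to 662, 1105 to 1312 and 923 to 1106 FPKM, with 4 higher and 3 lower on average with Flt3-ITD. The 7 mast cell and basophil markers summed to 73.7 to 75.4, 117 to 119, 41.8 to 43.7 and 48.5 to 63.7 FPKM, with 3 of 5 tested lower and Cma1 and Tpsb2 listed at 0 in all libraries. The 7 T and NK cell markers summed to 123 to 132, 135 to 172, 179 to 181 and 117 to 162 FPKM, with 1 of 2 tested lower and Cd3g and Ncr1 listed at 0 in both Flt3-ITD libraries. None of the 6 granulocyte-monocyte progenitor markers, which summed to 4766 to 7002 FPKM over all libraries, passed. The 11 stem and early progenitor markers summed to 153 to 155, 131 to 137, 133 to 177 and 149 to 156 FPKM. Of the 8 tested, 1 was higher and 1 lower. All these marker counts stand beside 10.9% higher and 12.8% lower of all tested genes in the averaged Flt3-ITD effect. In bulk samples like these, fewer cells of a type and less RNA per cell cannot be told apart. The part of these shifts in the values below was not tested.

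Promoters are shown for the 3 genes that passed the test in at least one comparison, since Spred1 fell and Dusp6 rose with Flt3-ITD and Spred2 fell in the combined group against control. RefSeq sequences (build GRCm38.p6) were at hand for 7 of the 9 genes, with 2 start sites for Etv5, and the 250 bases before each start were searched on both strands for GGAAGT (the ETS core with flanking bases), TTCNNNGAA (STAT), TGACTCA (AP-1) and TGACGTCA (CRE). Capitals mark a match, and no match overlapped another.
Dusp6, chr10:99262981-99263230, plus strand: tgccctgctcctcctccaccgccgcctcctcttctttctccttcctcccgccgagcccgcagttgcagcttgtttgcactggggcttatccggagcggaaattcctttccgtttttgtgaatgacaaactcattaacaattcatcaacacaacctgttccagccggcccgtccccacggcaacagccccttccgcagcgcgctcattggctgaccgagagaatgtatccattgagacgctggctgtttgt
Spred1, chr2:117120821-117121070, plus strand: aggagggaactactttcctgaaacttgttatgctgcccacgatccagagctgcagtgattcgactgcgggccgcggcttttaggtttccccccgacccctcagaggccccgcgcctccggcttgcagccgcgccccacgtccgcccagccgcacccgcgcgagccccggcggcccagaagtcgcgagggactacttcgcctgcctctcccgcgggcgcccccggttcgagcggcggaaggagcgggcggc
Spred2, chr11:19924192-19924441, plus strand: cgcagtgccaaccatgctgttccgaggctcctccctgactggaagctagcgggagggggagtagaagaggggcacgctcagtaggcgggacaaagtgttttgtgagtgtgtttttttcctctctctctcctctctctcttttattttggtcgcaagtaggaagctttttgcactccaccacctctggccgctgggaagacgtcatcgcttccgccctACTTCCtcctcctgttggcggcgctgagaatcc
The window of Spred2 held the ETS letters on the minus strand, 28 to 33 bases before the start, and those of Dusp6 and Spred1 held none of the 4 motifs. ETS letters were also found in Dusp5 and in the second window of Etv5, against 19.7% of the 32851 windows in the table. None of the 8 windows of these genes held the STAT, AP-1 or CRE letters, which occur in 7.02%, 4.46% and 1.55% of all windows. Dusp5 was the only one of the 7 with a CArG box, the element read by serum response factor, which 1.47% of all windows hold. It had a pair of them side by side 63 to 82 bases before the start (chr19:53529063-53529082): CCATATTTGGCCTTATATGG. The CArG box was added to the search after these sequences were seen.

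As FPKM, which is per transcript length, the 9 genes spanned a wide range of levels in these cells. Dusp6 (mean of 7.50 FPKM over the 8 libraries), Spred2 (7.16) and Spred1 (6.998) were the most abundant, at percentiles 68.8 to 69.7 of all mouse genes. Spry2 was at 3.74, Etv5 at 1.42 and Dusp5 at 1.07 FPKM. Spry1 (0.499), Spry4 (0.152) and Dusp4 (0.0396) were below the filter of 1 FPKM and had no test among all genes in the main fit. Of the Sprouty family, Spry2 was thus the main transcript, and of the 3 phosphatases Dusp6. The FPKM of each library is plotted per gene.

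**Figure D1:**
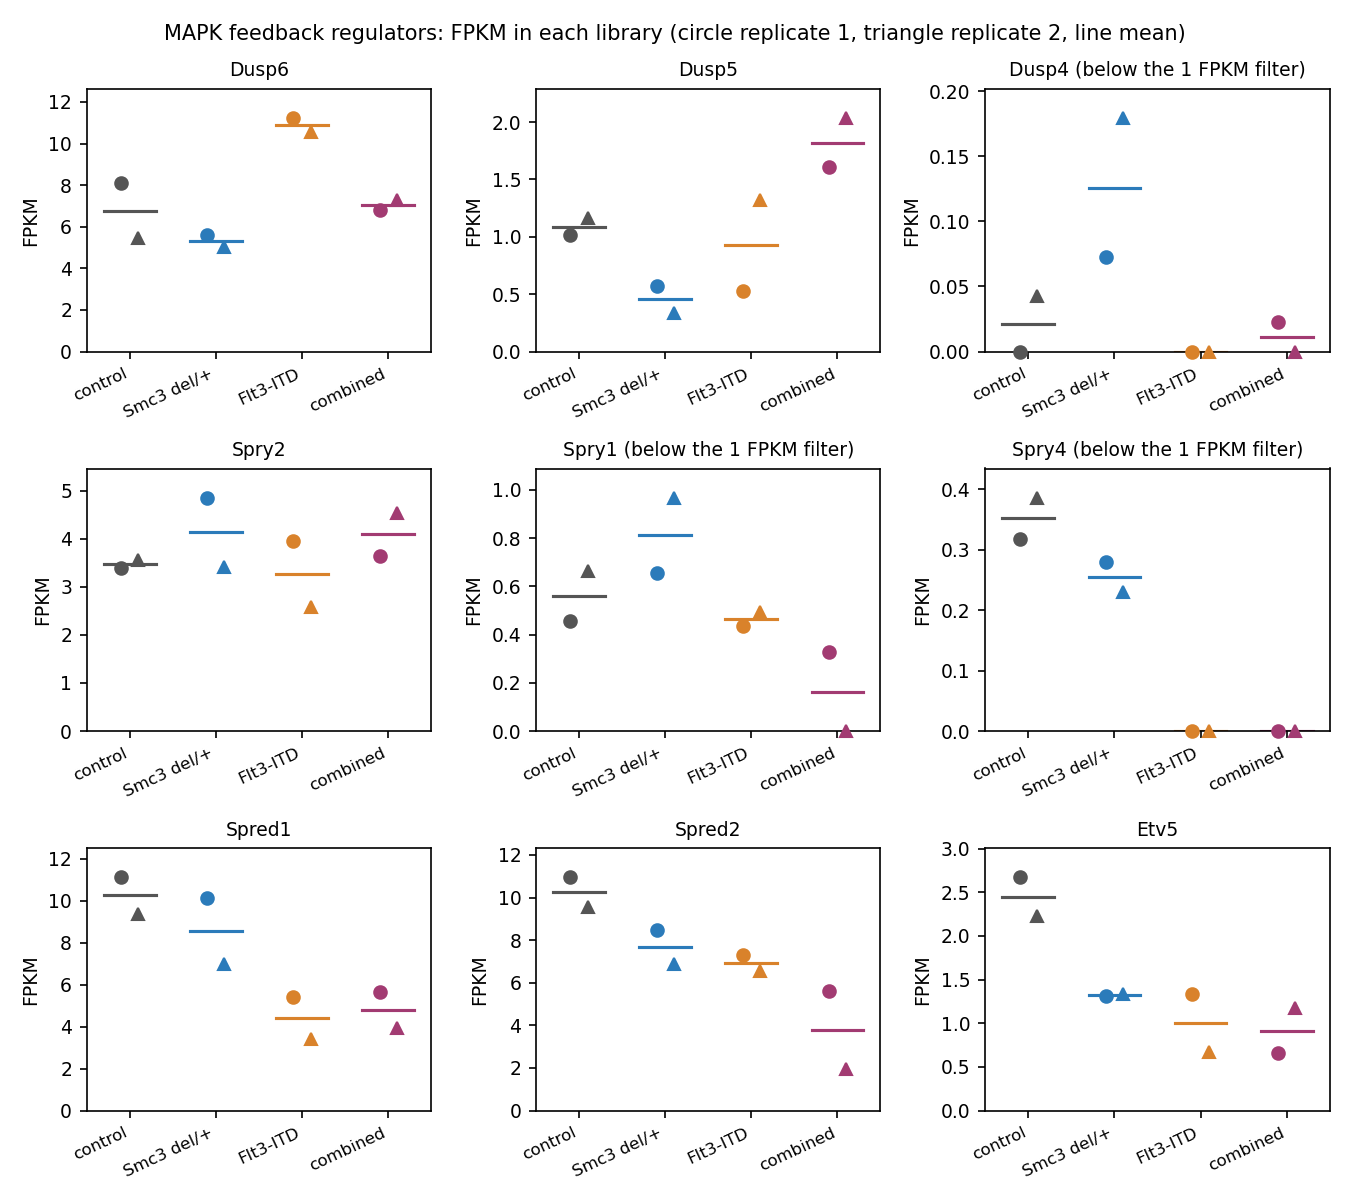
FPKM of each of the 9 genes (vertical axes, each from 0) in the 2 libraries of each group (circle, replicate 1; triangle, replicate 2; line, mean). Spred1 is lower in all 4 libraries with Flt3-ITD than in the 4 without, Dusp6 is highest in the Flt3-ITD pair, and Spry4 is listed at 0 in every library with Flt3-ITD.

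Spred1, which restrains RAS signalling together with neurofibromin, fell with Flt3-ITD. It read 11.1 and 9.38 FPKM in the control pair, 10.1 and 6.97 in the Smc3 del/+ pair, 5.41 and 3.41 in the Flt3-ITD pair, and 5.67 and 3.91 in the combined pair. All 4 libraries with Flt3-ITD were below all 4 without it. The means were 4.60 ± 1.11 against 9.39 ± 1.77 FPKM (SD, n = 4 each), 49.0% of the level without Flt3-ITD. The averaged Flt3-ITD effect, from a model of Flt3-ITD and the Smc3 deletion together, was a log2 fold change of -0.90 ± 0.195 (SE, limma adjusted p = 0.0137). With both Smc3 alleles present, Flt3-ITD against control gave -1.08 ± 0.275 (adjusted p = 0.0346). With the deletion, the same effect (combined group less Smc3 del/+) was -0.72 ± 0.275, which did not pass (adjusted p = 0.181). The difference between these effects did not pass either (interaction 0.36 ± 0.388, adjusted p = 0.792). The combined group against control, where both pairs had the same Xist pattern, gave -0.97 ± 0.275 and did not pass (limma adjusted p = 0.0621). The averaged effect missed the threshold without control replicate 1 (adjusted p = 0.0552). The call in Flt3-ITD against control was lost without either replicate of control, Smc3 del/+ or Flt3-ITD. It was also lost when low genes were kept (limma adjusted p = 0.0719).

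Spred2, the close relative of Spred1, was lowest where both alleles were combined. Its values read 10.955 and 9.56 FPKM in the control pair, 8.48 and 6.88 in the Smc3 del/+ pair, 7.32 and 6.53 in the Flt3-ITD pair, and 5.60 and 1.95 in the combined pair. The pair of the combined group lay below every other library, and combined replicate 2 was far below its partner. The combined group against control gave a log2 fold change of -1.35 ± 0.349 (adjusted p = 0.0472), and this comparison sets mice of the same Xist pattern against each other. This call held in 5 of 14 alternatives. It was lost without either replicate of any other group, when low genes were kept, with a pseudocount of 0.1 and in a fit of only the groups compared. It held without either combined replicate, but those fits leave 1 library in the combined group and drop the spread between its replicates. The averaged Flt3-ITD effect was -0.74 ± 0.247 and did not pass (adjusted p = 0.0615). It passed without combined replicate 2 (-0.46, adjusted p = 0.0164), without combined replicate 1 (-0.92, adjusted p = 0.0312) and in the table normalized by the authors (-1.15, adjusted p = 0.0034), in which the median of all tested genes was -0.44.

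Etv5 had its highest level in controls. It read 2.67 and 2.23 FPKM there, 1.31 and 1.34 in the Smc3 del/+ pair, 1.33 and 0.669 in the Flt3-ITD pair, and 0.657 and 1.18 in the combined pair. Both controls were above all 6 other libraries. The Flt3-ITD pair spanned a range that overlapped the Smc3 del/+ and the combined pairs, which did not overlap each other. No comparison passed for Etv5. Flt3-ITD against control gave a log2 fold change of -0.80 ± 0.282 (adjusted p = 0.0886), the combined group against control -0.86 ± 0.282 (0.0915) and Smc3 del/+ against control -0.57 ± 0.282 (1). These comparisons share the control pair, and Mx1-cre is also absent from these libraries alone. In the first of them Etv5 passed without combined replicate 1 (adjusted p = 0.0322) or 2 (0.0341), in the second without combined replicate 2 (0.0322). In the table normalized by the authors it passed in both (-1.41, adjusted p = 0.00582, and -1.29, 0.00757) and in the averaged Flt3-ITD effect (-0.85, 0.0357), with all-gene medians of -0.58, -0.67 and -0.44. The averaged effect, -0.55 ± 0.216 in the first table (adjusted p = 0.0990), passed there without combined replicate 2 (0.0273).

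Among the phosphatases, Dusp6, which acts on ERK in the cytoplasm, rose with Flt3-ITD on average, opposite to Spred1. It read 8.09 and 5.45 FPKM in the control pair, 5.61 and 5.01 in the Smc3 del/+ pair, 11.2 and 10.5 in the Flt3-ITD pair, and 6.78 and 7.29 in the combined pair. The Flt3-ITD pair was above all other libraries, while the combined pair lay between the 2 controls. The averaged Flt3-ITD effect was a log2 fold change of 0.49 ± 0.148 (adjusted p = 0.0430). Flt3-ITD against control gave 0.63 ± 0.205 (adjusted p = 0.0709) and the combined group against Smc3 del/+ 0.35 ± 0.205 (0.370), neither of which passed. The call on the averaged effect was lost in every fit that left out 1 library except the one without combined replicate 2 (adjusted p = 0.0522 to 0.121 in the others). It was also lost when low genes were kept (0.0734). In the table that the authors had normalized, the averaged effect of Dusp6 was 0.05 (adjusted p = 0.827), where the median of all tested genes was -0.44. The averaged rise was thus seen on the scale of the first table and not on that of the second, and the cause of this difference was not tested. The combined group against control, where both pairs had the same Xist pattern, gave 0.07 ± 0.205 and did not pass (limma adjusted p = 0.864).

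Dusp5, the nuclear ERK phosphatase, was low and did not pass in any comparison. Its values read 1.02 and 1.16 FPKM in the control pair, 0.574 and 0.334 in the Smc3 del/+ pair, 0.531 and 1.32 in the Flt3-ITD pair, and 1.60 and 2.03 in the combined pair. The combined pair was above all other libraries, and the Smc3 del/+ pair was the lowest except that it overlapped Flt3-ITD replicate 1. With the deletion, the Flt3-ITD effect was 0.96 ± 0.297 on the log2 scale (combined group against Smc3 del/+, adjusted p = 0.116), and without it -0.15 ± 0.297 (0.774). The test of the difference between them gave 1.10 ± 0.420 (unadjusted p = 0.0318, adjusted p = 0.479), and so did not pass; this difference cannot be told apart from sex. Dusp4, a nuclear phosphatase of several MAP kinases, was listed at 0 in 4 libraries. It read 0 and 0.0426 FPKM in the control pair, 0.0724 and 0.179 in the Smc3 del/+ pair, 0 in both Flt3-ITD libraries, and 0.0224 and 0 in the combined pair. The Smc3 del/+ pair was thus above all other libraries. In the fit that kept low genes Dusp4 did not pass between the combined and Smc3 del/+ groups (-0.15 ± 0.0590, unadjusted p = 0.0402, adjusted p = 0.243).

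The Sprouty genes did not share a pattern. Spry2 read 3.39 and 3.55 FPKM in the control pair, 4.85 and 3.42 in the Smc3 del/+ pair, 3.96 and 2.58 in the Flt3-ITD pair, and 3.63 and 4.54 in the combined pair. Its averaged Flt3-ITD effect was -0.05 ± 0.172 on the log2 scale (adjusted p = 0.874), and the libraries with and without Flt3-ITD overlapped. Spry1 read 0.455 and 0.662 FPKM in the control pair, 0.656 and 0.968 in the Smc3 del/+ pair, 0.434 and 0.494 in the Flt3-ITD pair, and 0.327 and 0 in the combined pair. The combined pair was below all other libraries, 1 of them being the library with the most genes at 0. In the fit that kept low genes, Spry1 did not pass in the combined group against Smc3 del/+ (log2 fold change -0.65 ± 0.167, adjusted p = 0.111).

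Spry4, which restrains signalling from receptor kinases to RAS, was found at a low level in every library without Flt3-ITD and in none with it. It read 0.317 and 0.386 FPKM in the control pair and 0.279 and 0.230 in the Smc3 del/+ pair, and was listed at 0 in all 4 libraries with Flt3-ITD. Both replicates of each group lay on the same side, in both Smc3 states. Of the 12893 genes above 0 in all 4 libraries without Flt3-ITD, 0.690% were listed at 0 in all 4 with it. Of the 77 genes at 0.2 to 0.5 FPKM in all 4, a range chosen after the values were seen, Spry4 was the 1 gene (1.30%) to be so listed. Spry4 was below the filter of the main fit. In the fit that kept low genes, its averaged Flt3-ITD effect was -0.38 ± 0.0418 on the log2(FPKM + 1) scale (adjusted p = 0.00502), with -0.43 between Flt3-ITD and control (0.0105) and -0.33 between the combined and Smc3 del/+ groups (0.0456). A set of 4 values at 0 has no spread of its own, which makes the SE small. The number of reads behind these values is unknown, and a listed 0 at this level does not show absence.

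**Figure D2:**
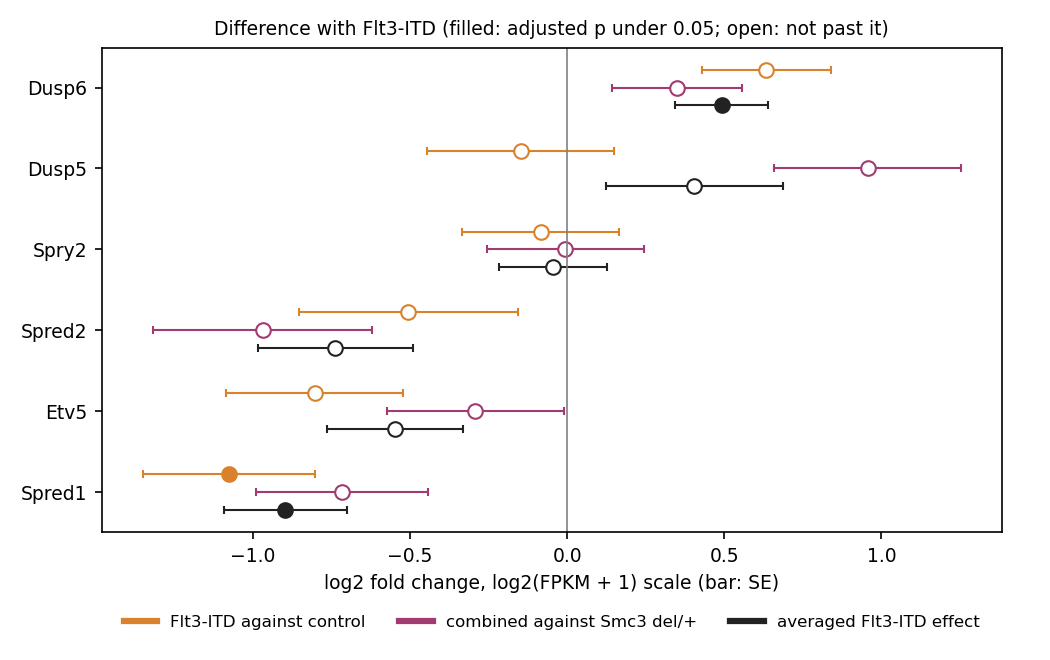
Log2 fold change with Flt3-ITD on the log2(FPKM + 1) scale (horizontal axis, bars are SE) for the 6 tested genes, in Flt3-ITD against control, in the combined group against Smc3 del/+, and averaged over both; filled points have an adjusted p under 0.05. Averaged, Dusp6 at 0.49 and Spred1 at -0.90 are filled, and the other 4 genes are open.

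Counted over the 6 tested genes, the averaged Flt3-ITD effect passed for 1 higher (Dusp6) and 1 lower (Spred1), where 10.9% of all 10854 tested genes were higher and 12.8% lower. The median log2 fold change of the 6 was -0.30, and that of all tested genes -0.01. Libraries with and without Flt3-ITD did not overlap for 1 of the 6, Spred1, which was lower. Over all genes, 12.1% were higher and 15.1% lower without overlap. In Flt3-ITD against control 1 of 6 passed, Spred1, lower, where 8.51% of all genes were higher and 9.50% lower. There 1 of the 6 was higher and 3 were lower without overlap, where 34.3% and 35.2% of all genes were. Between the combined and Smc3 del/+ groups none passed by limma, where 5.44% of all genes did, and 3 had an unadjusted p under 0.05, as did 21.9% of all genes. In that comparison 2 were higher and 3 lower without overlap, against 22.3% and 25.7% of all genes. In the combined group against control 1 of 6 passed, Spred2, lower, where 5.41% of all genes were higher and 6.38% lower. Of the 6, 2 were higher and 3 lower without overlap there, against 25.8% and 26.8% of all genes. With so few genes, these counts do not set the group apart from the genes at large.

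**Figure D3:**
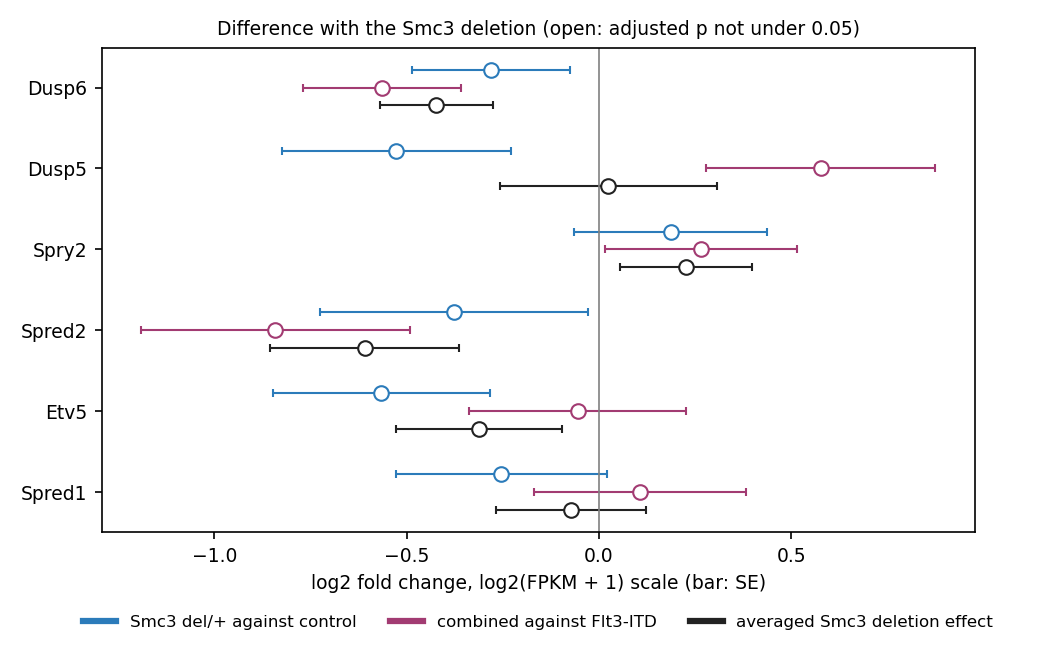
Log2 fold change with the Smc3 deletion on the log2(FPKM + 1) scale (horizontal axis, bars are SE) for the 6 tested genes, in Smc3 del/+ against control, in the combined group against Flt3-ITD, and averaged over both. All points are open because no adjusted p is under 0.05, and the averaged values run from -0.61 for Spred2 to 0.23 for Spry2.

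With the Smc3 deletion none of the 6 genes passed the test by limma, in either Flt3 state or on average. Smc3 del/+ against control had 0 of 6 with an unadjusted p under 0.05, against 4.55% of all genes, and 0.00921% of all genes passed after adjustment. Dusp5, Spred2 and Etv5 were lower without overlap in that comparison and none was higher, where 23.2% and 24.2% of all genes were. The combined group less Flt3-ITD had 2 of 6 with an unadjusted p under 0.05, against 11.0% of all genes, and 0.286% of all genes passed. The values of largest size there were -0.84 ± 0.349 for Spred2 (adjusted p = 0.443), 0.58 ± 0.297 for Dusp5 (0.495) and -0.57 ± 0.205 for Dusp6 (0.390). These 3 genes, 1 higher and 2 lower, had pairs that did not overlap, as had 17.1% of all genes higher and 16.8% lower. Averaged over both Flt3 states, Dusp6 was at -0.42 ± 0.148 (unadjusted p = 0.0197, adjusted p = 0.901) and Spred2 at -0.61 ± 0.247 (unadjusted p = 0.0366, adjusted p = 0.901). No gene of the whole table passed in that average, and 4.84% had an unadjusted p under 0.05. None of the 6 was without overlap between libraries with and without the deletion, where 0.912% of all genes were higher and 0.783% lower. The interaction had none of the 6 past the threshold, where 0.0369% of all genes passed, and 1 (Dusp5) at an unadjusted p under 0.05, against 9.30% of all genes. Without combined replicate 1, Spred2 was at -1.42 between the combined and the Flt3-ITD groups and at -1.04 in the interaction. That leaves combined replicate 2, where Spred2 was at 1.95 FPKM, as the single library of its group.

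Genes elsewhere in the pathway were taken from lists of known members, whose counts for the averaged Flt3-ITD effect stand beside 10.9% higher and 12.8% lower of all tested genes, and 38.0% at an unadjusted p under 0.05. Among receptor kinases, Met and Csf1r rose with Flt3-ITD in the averaged fit, 2 of 5 tested, with log2 fold changes of 1.19 ± 0.199 (adjusted p = 0.00526) and 1.07 ± 0.224 (0.0119). Met, the hepatocyte growth factor receptor, read 4.51 and 3.70 FPKM in the control pair, 2.94 and 3.85 in the Smc3 del/+ pair, 6.98 and 9.56 in the Flt3-ITD pair, and 13.6 and 10.005 in the combined pair, with all carriers above all others. Csf1r is the macrophage colony-stimulating factor receptor and is itself among the monocyte and macrophage markers. Flt3 and Kit had averaged values of 0.37 and -0.23 and did not pass (adjusted p = 0.383 and 0.128), although Kit was among the genes that fell in the combined group against control. Flt3 read 5.81 and 5.21 FPKM in the control pair and 4.95 and 4.74 in the Smc3 del/+ pair. The Flt3-ITD pair read 3.64 and 5.36, and the combined pair, above all other libraries, 14.3 and 7.92. The average of Flt3 thus joined opposite signs. Flt3 was at -0.26 in Flt3-ITD against control (adjusted p = 0.573) and positive between the combined and Smc3 del/+ groups (0.0931). The combined group against Flt3-ITD gave 1.11 (0.239), and none of these passed.

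Of 14 tested adaptor and exchange factor genes 4 rose (Grb2, Gab3, Rasgrp2 and Rasgrp4) and 1 fell (Gab1), with a list median of 0.35, where 10.9% of all genes were higher and 12.8% lower. Gab1, a docking protein that passes receptor signals to Ptpn11 and RAS, read 8.61 and 8.91 FPKM in the control pair, 8.48 and 7.15 in the Smc3 del/+ pair, 1.85 and 1.28 in the Flt3-ITD pair, and 2.15 and 2.03 in the combined pair. The 4 libraries with Flt3-ITD (1.28 to 2.15 FPKM) were all far below the 4 without it (7.15 to 8.91). The averaged log2 fold change of Gab1 was -1.72 ± 0.159 (adjusted p = 0.000901), -1.94 ± 0.204 with both Smc3 alleles (0.00197) and -1.51 ± 0.204 with the deletion (0.0121). Rasgrp4, an exchange factor of myeloid and mast cells, rose on average by 1.16 ± 0.286 (adjusted p = 0.0207) and Gab3 by 0.62 ± 0.181 (0.0391). Combined replicate 2 read 11.9 FPKM for Rasgrp4, within the libraries without Flt3-ITD (9.37 to 14.4), against 32.7 in its partner. Both genes passed in Flt3-ITD against control (0.0433 and 0.0261). None of the 4 risen genes passed in the combined group against Smc3 del/+ (adjusted p = 0.193 to 0.495). The RAS-RAF-MEK-ERK list had 2 of 16 higher on average and none lower (median 0.18), close to the 10.9% higher of all genes. They were the MEK gene Map2k1 at 0.47 ± 0.148 (adjusted p = 0.0493) and Mapkapk2 at 0.45 ± 0.139 (0.0469). Combined replicate 2 read 13.9 and 39.9 FPKM for them, within the libraries without Flt3-ITD (11.4 to 14.9 and 34.3 to 41.0). Flt3-ITD against control had 3 of 16 higher, where 8.51% of all genes were. These were Mapk3 (0.98, adjusted p = 0.0480), Rps6ka1 (0.81, 0.0257) and Mapkapk2 (0.64, 0.0490). The combined group against Smc3 del/+ had none, with Mapk3, an ERK gene, at 0.08 (0.900). In the averaged effect none of 8 RAS GTPase-activating genes passed by limma, and 3 had an unadjusted p under 0.05, a share near the 38.0% of all genes (median 0.30).

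Of the ERK-dependent transcripts and family members outside the 9 genes, 5 of 14 were abundant enough to test. On average 2 rose, where 10.9% of all genes did. Phlda1 had an averaged log2 fold change of 0.92 ± 0.228 (adjusted p = 0.0212) and Ier3 of 0.73 ± 0.205 (0.0337). Neither passed in Flt3-ITD against control (adjusted p = 0.177 and 0.287) or in the combined group against Smc3 del/+ (0.0769 and 0.0622). Phlda1 was higher in every library with Flt3-ITD than in any without it. Ier3 read 1.46 and 2.32 FPKM in the Flt3-ITD pair, overlapping the Smc3 del/+ pair (2.04 and 1.59), and 4.55 and 4.96 in the combined pair. Ccnd1 and Myc, which encode cyclin D1 and a growth-driving transcription factor, had averaged values of -0.42 and -0.37 and did not pass (adjusted p = 0.296 and 0.220). Etv4, the relative of Etv5, was at 0 in 6 libraries and at most 0.0849 FPKM, and Spry3 was listed at 0 in all 8. None of the 4 tested MAP kinase phosphatases outside the 9 genes (Dusp1, Dusp2, Dusp7 and Dusp10) passed by limma, and 1, Dusp7, had an unadjusted p under 0.05, as did 38.0% of all genes (0.27 ± 0.113, adjusted p = 0.111). Of the pathway genes below the filter, 4 passed in at least one comparison of libraries with and without Flt3-ITD in the fit that kept low genes. Those that passed in none were Dusp9, Egfr, Egr1, Epha2, Epha4, Etv1, Etv4, Fosl1, Ksr2, Pdgfra, Rasal1 and Rasgrp1. The share of all genes that passed in any of these comparisons was not counted. The 4 are named after their values were seen. Of all 16161 genes in that fit, 2308 passed in the averaged effect and 1633 in Flt3-ITD against control. In the combined group, 385 passed against Smc3 del/+ and 1182 against control. Dusp16 read 2.07 and 1.65 FPKM in the control pair, 1.30 and 1.12 in the Smc3 del/+ pair, 0.0278 and 0.0714 in the Flt3-ITD pair, and 0.846 and 0.757 in the combined pair. It fell in Flt3-ITD against control (-1.44 ± 0.131, adjusted p = 0.00571) and in the combined group against control (-0.66, 0.0385), but missed the threshold in the averaged effect (-0.87, 0.0505) and between the combined and Smc3 del/+ groups (-0.29, 0.313). Errfi1, an inhibitor of the EGF receptor, was at 0.285 to 0.502 FPKM in the 4 libraries without Flt3-ITD and at 0 to 0.0781 in those with it. It fell in the averaged effect (-0.42 ± 0.0623, adjusted p = 0.00914) and in Flt3-ITD against control (-0.41, 0.0480), and missed the threshold in the combined group against Smc3 del/+ (-0.42, 0.0806) and control (-0.43, 0.0502). The receptor kinase gene Fgfr1 read 0.356 and 0.290 FPKM in the control pair, 0.1996 and 0.164 in the Smc3 del/+ pair, 0.495 and 0.620 in the Flt3-ITD pair, and 1.69 and 1.24 in the combined pair. It rose in the combined group against Smc3 del/+ (1.06 ± 0.119, adjusted p = 0.0222) and control (0.89, 0.0158), and missed the threshold in the averaged effect (0.64, 0.0511) and in Flt3-ITD against control (0.23, 0.285). Dusp8 fell in Flt3-ITD against control (-0.57, adjusted p = 0.049987) and did not pass in the averaged effect (-0.38, 0.0719), in the combined group against Smc3 del/+ (-0.18, 0.541) or against control (-0.47, 0.0961).

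In the table the authors had normalized, the all-gene median was -0.44 for the averaged Flt3-ITD effect. The pathway genes named above as risen in the averaged fit had values from -0.05 to 0.74 there. Grb2 and Rasgrp2 turned to -0.05 each, and Met alone of the 10 still passed (0.74, adjusted p = 0.0261). The falls of Gab1 (-2.10) and Spred1 (-1.32) passed there too.

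**Figure D4:**
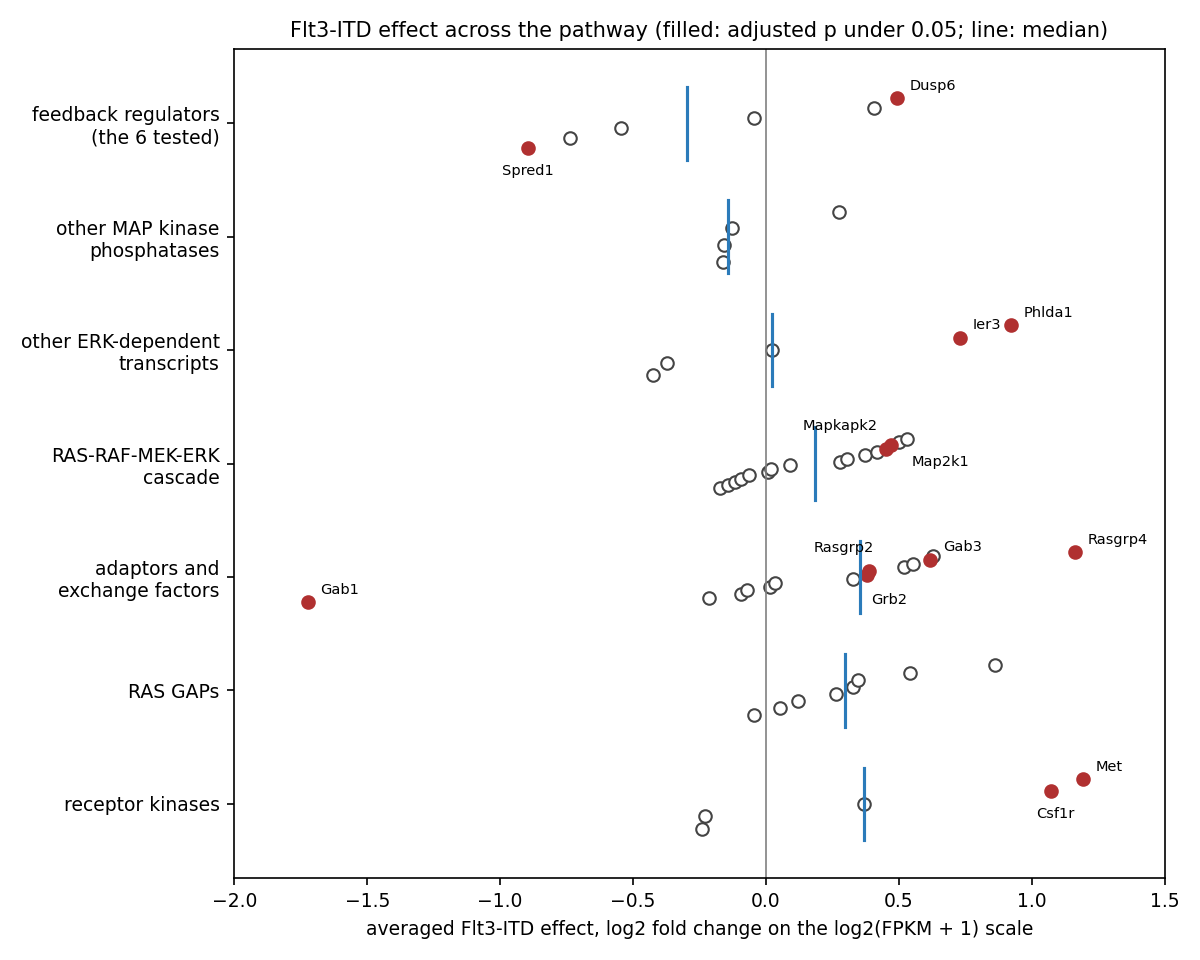
Averaged Flt3-ITD effect (horizontal axis, log2 fold change on the log2(FPKM + 1) scale) for each tested gene of the feedback group and of 6 other pathway lists; filled points have an adjusted p under 0.05 and the blue line is the list median. Gab1 at -1.72 lies farthest to the left, and the filled points to the right are receptor, adaptor, cascade and ERK-dependent genes along with Dusp6.

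Among all tested genes, the pattern of Spred1 over the 8 libraries was most like those of 2410076I21Rik (Pearson r = 0.973) and Gabpb2 (0.972), and that of Dusp6 like those of Hspa2 (0.991) and Tnfrsf23 (0.940). Hspa2, a heat shock protein 70 gene, read 4.55 and 3.34 FPKM in the control pair, 3.33 and 3.33 in the Smc3 del/+ pair, 6.27 and 5.87 in the Flt3-ITD pair, and 3.87 and 4.17 in the combined pair. It thus had the same high pair and a similar gap between the controls. Within the group, Spred1 correlated with Etv5 at r = 0.771 and with Spred2 at 0.726, while Dusp6 correlated with Spred1 at -0.537. These values describe 8 libraries in 4 groups, which share the group differences, and carry no test.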

How the data were processed

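The authors deposited FPKM values (fragments per kilobase of transcript, scaled to the mapped fragments of a library) for 8 libraries in 2 tables. The first was used; the second, in which the libraries had been normalized by steps the sources used here do not give, served as an alternative. Per the submitters' processing notes the build was mm9 and the tools included Cufflinks 2.0.0 and TopHat. Neither the role of each tool, nor the gene annotation, nor whether counting was stranded is stated there, and the library kit was directional, per the labels' protocols. The 92 spike-in rows were left out. Neither table holds read counts.

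Tests were run with limma 3.58.1 (R 4.3.3, empirical Bayes with a variance trend) on log2(FPKM + 1) for the 10854 genes whose mean reached 1 FPKM. All 8 libraries shared the spread, p-values were adjusted by Benjamini-Hochberg over all these genes, and the threshold was 0.05. Group comparisons and the interaction came from a fit of 4 group means (4 residual degrees of freedom), averaged effects from an additive model (5). This scale understates changes of low genes. All adjusted p-values are limma's. With 2 against 2 mice an exact permutation p cannot go under 0.333. The fitting code was tested on simulated data.

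All 9 genes are named. From each other pathway list come up to 4 genes with the smallest p in the averaged Flt3-ITD fit and others called there, and for each of the 9 called in it the 2 genes of most similar pattern. Mapk3 was named outside this rule, after its values were seen. The genes and lists were chosen with earlier results of these data known. Alternatives were a pseudocount of 0.1, no filter, the second table, median-ratio scaling, only the groups compared, a replicate block, leaving out each library and, chosen after seeing the data, an interaction (sex) term in the averaged effects.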

Additional observations from a re-analysis of the deposited data

How the results depend on the processing

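Of 666 alternative values of the 6 tested genes (Dusp4, Spry1 and Spry4 had a value only in the fit that kept low genes), 587 kept their direction and side of the threshold, 27 lost a call, 22 gained one and 30 changed sign; none of the 56 alternative values of results called in the first place did. Leaving out 1 library at a time, the number of genes called ran from 0 to 4 in Flt3-ITD against control and in the averaged Flt3-ITD effect, 0 to 2 in the combined group against control, and 0 to 1 in the combined group against Smc3 del/+, against Flt3-ITD and in the interaction (1 without combined replicate 1, Spred2). The number of all genes called also rose and fell across these fits, so the counts do not set these genes apart. The table normalized by the authors gave 3 in Flt3-ITD against control (Etv5, Spred1 and Spred2) and 4 in the combined group against control (these and Dusp6). Of all 10854 tested genes, 4783 and 5916 were called there, against 1955 and 1279 in the main fit. Keeping low genes gave 1 (Spry4) in the combined group against Smc3 del/+, where 385 of 16161 genes were called. A pseudocount of 0.1 and a fit of only the groups compared each gave 0 in the combined group against control. The cause was not tested, other than that the median of all genes moved to -0.58 and -0.67 in that table for the comparisons of Flt3-ITD and of the combined group with control.

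Values that changed sign in the normalized table were those of Dusp5 (-0.0013), Dusp6 (-0.62, adjusted p = 0.0328) and Spry2 (-0.46) in the combined group against control, Spry2 (-0.22) in Smc3 del/+ against control, Etv5 (0.12) in the combined group against Flt3-ITD, Dusp5 (-0.078) in the averaged deletion effect, Dusp6 (0.024) in the interaction, and Grb2 (-0.052) and Rasgrp2 (-0.047) in the averaged Flt3-ITD effect. Dusp5 in the averaged deletion effect was at -0.062 with a pseudocount of 0.1, and Spry2 in the combined group against Smc3 del/+ at 0.0049 with median-ratio scaling. Leaving out 1 library gave ranges across 0 for Dusp5 (-0.45 to 0.15) and Spry2 (-0.32 to 0.15) in Flt3-ITD against control, Spry2 in the combined group against Smc3 del/+ (-0.21 to 0.20) and in the averaged Flt3-ITD effect (-0.13 to 0.057), Dusp6 in the combined group against control (-0.18 to 0.32), Spry2 in Smc3 del/+ against control (-0.016 to 0.39), Spred1 (-0.16 to 0.38) and Etv5 (-0.30 to 0.19) in the combined group against Flt3-ITD, Dusp5 (-0.21 to 0.18) and Spred1 (-0.22 to 0.058) in the averaged deletion effect, and Spry2 (-0.16 to 0.31) and Spred2 (-1.04 to 0.12) in the interaction. Where a group was left with 1 library, it was assumed to vary like the others.

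Replicate numbers mark no stated pairing, and deviations of same-numbered libraries correlated at -0.113 to 0.0229. With the replicate number as a block, 2 genes (Spred1 and Spred2) were called in the combined group against control; averaged over both Smc3 states, Spred2 passed (adjusted p = 0.0434) and Dusp6 missed the threshold (0.0526). With the interaction (sex) term, Spred1 (0.0150) and Dusp6 (0.0427) both passed in the averaged Flt3-ITD effect.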
